A study of Mus musculus with 6 samples.

Results

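The glycerolipid acyltransferases followed here are 10 genes of 2 enzyme groups, namely Gpam, Gpat2, Gpat3 and Gpat4 of the GPAT group and Mboat1, Mboat2, Mboat7, Lpcat1, Lpcat2 and Lpcat3 of the lysophospholipid acyltransferases. They were picked by symbol out of 27179 counted gene identifiers, and the set was chosen because Gpat2 and Mboat2 differed strongly between groups. The values of those 2 genes are therefore given as a description, without a p-value. Their standard errors come from the fitted test and are not to be read as evidence of a difference. RNA-seq was performed on A20, a mouse B cell lymphoma line of BALB/c origin, in 3 groups of 2 independently repeated libraries. Wild-type A20 cells carried no construct. Control TETact-v3 cells carried dCas9 with the SunTag epitope array, through which copies of the TET1 catalytic domain are recruited, together with a non-targeting sgRNA whose MS2 aptamers recruit the p65-hsf1 activator, and Cd4 TETact-v3 cells carried the same constructs with an sgRNA against the Cd4 promoter. Both TETact-v3 groups were transduced with lentivirus and collected 7 days after the sgRNA was delivered, so that construct, transduction and sorting cannot be told apart in a comparison with wild-type cells.

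GPAT enzymes join a fatty acyl-CoA to glycerol 3-phosphate and make lysophosphatidic acid, the first step of the de novo route to triacylglycerol and membrane phospholipids. Gpam and Gpat2 encode mitochondrial forms, and Gpat3 and Gpat4 encode forms of the endoplasmic reticulum. The MBOAT and LPCAT enzymes act later, in the Lands cycle, where they put a new acyl chain back on a lysophospholipid and thereby set the fatty acids that a membrane holds.

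The libraries held between 23194920 and 121623410 counts, with the control TETact-v3 libraries the deepest. The targeted gene followed the labels. Cd4 was at 0.796 and 0.794 CPM (counts normalised to the TMM-scaled library size) in the wild-type libraries, at 1.14 and 1.53 CPM in the control libraries and at 944.8 and 913.2 CPM in the Cd4 libraries. The 6 B cell markers Cd79a, Cd79b, Ms4a1, Pax5, Cd22 and Cd74 were all detected. Their summed level was 7140.4 to 7188 CPM in wild-type, 4554 to 7307 CPM in control and 3802 to 4343 CPM in Cd4 libraries. Most of each sum was Cd74, at 5497, 4769 and 3036 CPM on average in wild-type, control and Cd4 cells. Cd74 was not called against wild-type cells. In each TETact-v3 group 2 of the 6, Cd79a and Cd79b, were called lower than in wild-type cells. Of all genes, 13.5% (control) and 10.7% (Cd4) were called lower. The 5 T cell markers summed to at most 0.902 CPM and the 5 myeloid markers to at most 6.38 CPM, with Cd3e and Cd14 at 0 in every library. In these bulk libraries fewer cells of a type and less RNA per cell cannot be told apart, and the part of the marker shifts in the acyltransferase values was not tested. Divided by its degrees of freedom, the chi-square between replicates was 372.5 for the control pair. It was 18.6 for the wild-type pair and 12.2 for the Cd4 pair. This measure was taken from raw counts with mitochondrial genes included and grows with depth. It therefore does not compare the spread of the pairs on a like scale. Control replicate 2 also had the largest share of mitochondrial counts, 11.5% against 2.65% to 6.90% elsewhere, so values without it are given where they matter.

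Of the 10 genes, 8 passed the filter on low counts and stood among the 12418 genes tested. Mboat1 and Lpcat2 had 0 counts in all 6 libraries, which allows a level of up to 0.027 to 0.14 CPM per library at a limit of 3 counts. The 8 detected genes are shown by library in the plot of RPKM values.

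**Figure D1:**
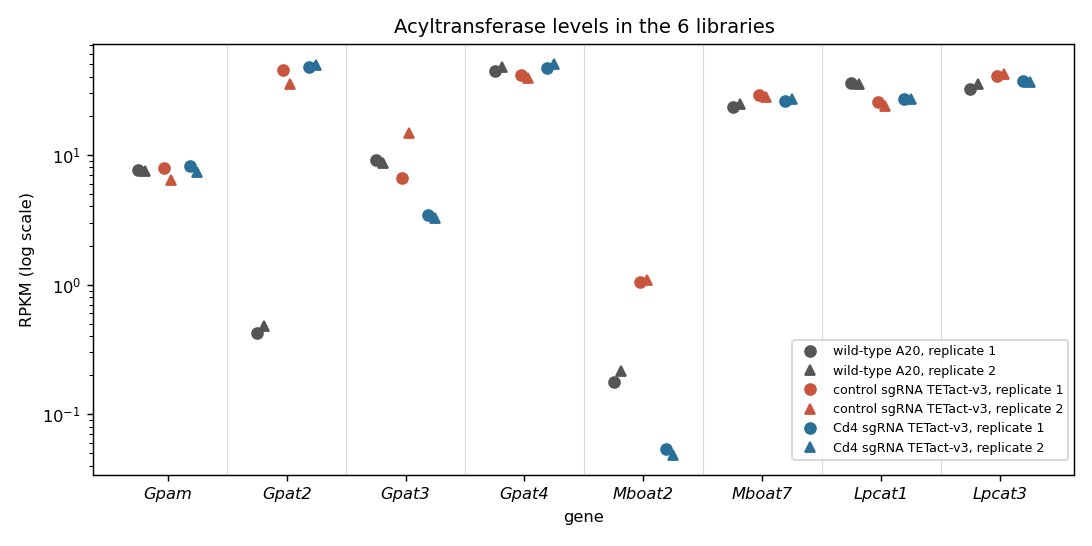
RPKM (CPM per kilobase of exonic length, log axis) of the 8 detected acyltransferase genes in each of the 6 libraries, with circles for replicate 1 and triangles for replicate 2. Gpat2 lies near 0.453 RPKM in wild-type libraries and between 34.9 and 49.2 RPKM in the 4 TETact-v3 libraries, while Mboat2 is highest in control and lowest in Cd4 libraries.

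Gpat2, on chromosome 2 of GRCm38 (chr2:127425154-127436093), encodes a GPAT known mainly from testis and germ cells, where it has been tied to piRNA production. It was at 1.12 and 1.26 CPM in the wild-type libraries, at 118.9 and 91.8 CPM in the control libraries, and at 124.6 and 129.4 CPM in the Cd4 libraries. Both TETact-v3 groups thus lay far above wild-type cells, with no overlap, and the Cd4 libraries lay just above the control libraries. The wild-type values rest on 52 and 27 counts, with exact 95% Poisson intervals of 38.8 to 68.2 and 17.8 to 39.3 counts, whereas the lowest TETact-v3 library held 4082 counts. These intervals cover counting error only. The log2 fold change over wild-type cells was 6.49 ± 0.20 (standard error, SE), or 90.0-fold, with control sgRNA and 6.76 ± 0.20 (SE), or 108-fold, with Cd4 sgRNA. Between the Cd4 and control groups it was 0.27 ± 0.13 (SE), and it was 0.09 without control replicate 2 and 0.47 without control replicate 1. Without control replicate 2 the log2 fold change between control and wild-type cells was 6.67.

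Mboat2, on chromosome 12 (chr12:24831435-24964400), encodes an acyltransferase that acts on lysophosphatidylethanolamine and lysophosphatidylcholine. It was at 0.495 and 0.607 CPM in the wild-type libraries, at 2.93 and 3.04 CPM in the control libraries and at 0.153 and 0.136 CPM in the Cd4 libraries. Every control library was therefore above, and every Cd4 library below, both wild-type libraries. The counts were 23 and 13 in wild-type, 325 and 246 in control and 5 and 6 in Cd4 libraries, and the exact 95% Poisson intervals of the lowest pair reached from 1.62 to 11.7 and from 2.20 to 13.1 counts. The log2 fold change over wild-type cells was 2.48 ± 0.25 (SE) with control sgRNA and -1.88 ± 0.49 (SE) with Cd4 sgRNA. Cd4 cells were lower than control cells by a log2 fold change of -4.36 ± 0.31 (SE), a 20.6-fold difference, which was -4.33 without control replicate 2.

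The sequence just before the annotated span of these 2 genes is shown because they are the members that set the groups apart most, and because CG dinucleotides are the substrate of the methylation that TET1 removes. DNA methylation was not analysed here. CG dinucleotides are in capitals, and both stretches come from the promoter windows of RefSeq on GRCm38.p6, plus strand, Gpat2 at chr2:127424949-127425153 and Mboat2 at chr12:24831349-24831434.
Gpat2: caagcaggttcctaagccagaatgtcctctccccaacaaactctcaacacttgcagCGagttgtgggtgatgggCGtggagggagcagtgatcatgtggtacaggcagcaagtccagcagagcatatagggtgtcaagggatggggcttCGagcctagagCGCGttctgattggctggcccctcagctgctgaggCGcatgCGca
Mboat2: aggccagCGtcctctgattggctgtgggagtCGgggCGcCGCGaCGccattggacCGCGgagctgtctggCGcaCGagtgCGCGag
The Gpat2 stretch had 7 CG in 205 bases and the Mboat2 stretch 12 CG in 86 bases. A promoter window has 300 bases, 250 before and 50 after its own start. For both genes that start lies inside the annotated span, so the printed stretches end short of it. Over the whole window Gpat2 had 15 CG, a number reached by 34.6% of the 32851 mouse windows, and Mboat2 had 40, reached by 3.91%. Windows were found for 9 of the 10 genes, and Mboat1 and Lpcat2, at 0 counts, had 29 and 15 CG, while Lpcat3, with 36, was among the well expressed genes. CG number therefore did not order the members by their level. Searched on both strands, the letters CCAAT occurred once in the Gpat2 window, 2 times in the Mboat2 window and 4 times in the Lpcat3 window, and 37.4% of all windows held them. The sterol response element TCACNCCAC, the NF-kB site and the heat shock pair TTCNNGAA did not occur in any member window, against 1.24%, 1.63% and 8.52% of all windows. The hypoxia response core ACGTG, which contains a CG, occurred in the windows of Mboat1, Mboat7 and Lpcat1, and in 19.6% of all windows. These matches describe letters in a window and no binding.

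The other GPAT genes moved much less. Gpat4 (chr8:23171265-23208453), the most abundant GPAT of wild-type cells, was at 176.0 and 187.1 CPM in wild-type, 163.3 and 153.1 CPM in control and 184.9 and 199.3 CPM in Cd4 libraries. The control libraries lay below all others, but the log2 fold change over wild-type cells was -0.20 ± 0.090 (SE) with an adjusted p of 0.14, and that with Cd4 sgRNA was 0.08 ± 0.090 (SE) with an adjusted p of 0.54. Gpam (chr19:55067635-55127319), the mitochondrial GPAT under control of SREBP-1c in liver, was at 29.1 and 28.5 CPM in wild-type, 30.0 and 24.5 CPM in control and 31.3 and 28.1 CPM in Cd4 libraries. All 3 groups overlapped, and its adjusted p was at least 0.55 in each comparison.

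Gpat3 (chr5:100845665-100899102), the endoplasmic reticulum GPAT best known from adipocytes, was the member with the widest spread between replicates. It was at 26.2 and 24.99 CPM in wild-type libraries and at 9.83 and 9.38 CPM in Cd4 libraries, but at 19.1 and 42.6 CPM in the control libraries. The Cd4 libraries were lower than all others, whereas the control libraries lay on either side of the wild-type ones. Gpat3 fell with Cd4 sgRNA relative to wild-type cells, with a log2 fold change of -1.42 ± 0.38 (SE, adjusted p = 0.047). This call was lost without either wild-type library (adjusted p = 0.228 and 0.176 without replicates 1 and 2) or either Cd4 library (adjusted p = 0.193 and 0.238), within a range of 3.79e-14 to 0.238 over 16 alternatives. It was also lost with voomLmFit (adjusted p = 0.097) and with library size as the only scaling (adjusted p = 0.053). Between Cd4 and control cells the log2 fold change was -1.68 ± 0.37 (SE, adjusted p = 0.12), and it was -2.15 without control replicate 1 and -0.997 without control replicate 2. Between control and wild-type cells it was 0.26 ± 0.35 (SE, adjusted p = 0.60), and the direction rested on the replicate, at 0.75 without control replicate 1 and -0.42 without control replicate 2. Gpat3 shares 200 bases with Abraxas1 in the annotation, and reads there may have been split between them.

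Because RPKM divides by exonic length, levels can be set beside each other within the GPAT group. In wild-type libraries Gpat2 held 0.719% ± 0.042 (SD, n = 2) of the summed RPKM of the 4 genes and Gpat4 held 73.2% ± 1.26. In control cells the Gpat2 share was 44.7% and 36.8% in the replicates and the Gpat4 share 40.9% in both, and in Cd4 cells Gpat2 held 44.7% ± 0.12 and Gpat4 45.0% ± 1.07. Gpat2 and Gpat4 transcripts were thus at like levels in all 4 TETact-v3 libraries. The sum of the GPAT group was 62.9 ± 1.64 RPKM (SD, n = 2) in wild-type, 98.0 ± 4.37 RPKM in control and 108.1 ± 3.19 RPKM in Cd4 cells. Without Gpat2 it was 62.5 ± 1.60, 58.0 ± 2.93 and 59.8 ± 1.90 RPKM, so that the higher sum lay in Gpat2. These shares contain Gpat2, which chose the set, and were not tested.

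**Figure D2:**
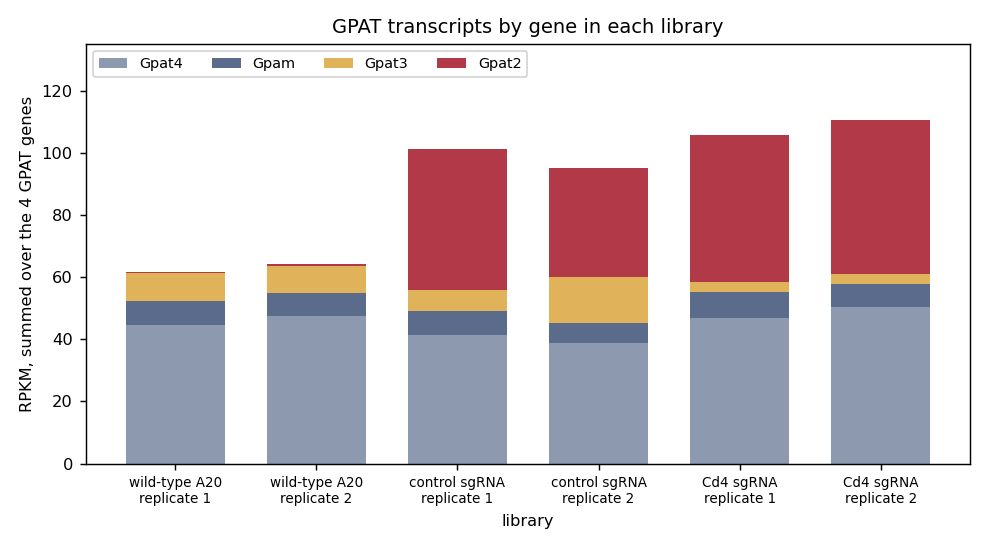
Stacked RPKM of Gpat4, Gpam, Gpat3 and Gpat2 in each of the 6 libraries (linear axis from 0). The sum is 62.9 RPKM on average in wild-type libraries and 98.0 and 108.1 RPKM in the control and Cd4 groups, and the added part is the Gpat2 segment.

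Among the lysophospholipid acyltransferases, Lpcat1 fell and Lpcat3 rose in control cells. Lpcat1 (chr13:73467231-73516420), which makes the saturated phosphatidylcholine of lung surfactant, was at 57.2 and 56.0 CPM in wild-type, 40.9 and 37.9 CPM in control and 42.9 and 43.3 CPM in Cd4 libraries. All 4 TETact-v3 libraries lay below both wild-type libraries. The log2 fold change over wild-type cells was -0.52 ± 0.087 (SE, adjusted p = 0.0093) with control sgRNA and -0.39 ± 0.088 (SE, adjusted p = 0.028) with Cd4 sgRNA. Without a wild-type library the first of these calls was lost (adjusted p = 0.133 and 0.0994 without replicates 1 and 2, in a range of 2.19e-07 to 0.133 over 16 alternatives). The second was lost without either wild-type library or either Cd4 library (adjusted p of 0.197 to 0.256, in a range of 5.13e-06 to 0.256), while all of these estimates stayed below 0.

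Lpcat3 (chr6:124663094-124704716), a target of the LXR receptors that puts polyunsaturated chains on phospholipids, was at 80.0 and 87.3 CPM in wild-type, 101.8 and 105.2 CPM in control and 93.1 and 91.0 CPM in Cd4 libraries. The groups did not overlap, with the Cd4 libraries in between. It rose in control cells, with a log2 fold change of 0.31 ± 0.086 (SE, adjusted p = 0.042), a call that was lost when any 1 wild-type or Cd4 library was left out (adjusted p of 0.124 to 0.28, in a range of 3.81e-05 to 0.28 over 16 alternatives). It was also lost with only the 2 groups compared (adjusted p = 0.12) and without a filter on low counts (adjusted p = 0.056). With Cd4 sgRNA its log2 fold change over wild-type cells was 0.14 ± 0.086 (SE, adjusted p = 0.28). Lpcat3 lies 160.0 kb from Cd4 on the same chromosome, and between Cd4 and control cells its log2 fold change was -0.17 ± 0.085 (SE, adjusted p = 0.26).

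Mboat7 (chr7:3677789-3693189), which places arachidonic acid on lysophosphatidylinositol, was at 67.4 and 70.8 CPM in wild-type, 83.6 and 80.9 CPM in control and 75.1 and 78.0 CPM in Cd4 libraries. Its order of groups was that of Lpcat3, but no comparison passed the test, and the log2 fold change between control and wild-type cells was 0.25 ± 0.082 (SE, adjusted p = 0.064). Mboat1, which acts on lysophosphatidylethanolamine and lysophosphatidylserine, and Lpcat2, an enzyme of platelet-activating factor synthesis in inflammatory cells, were at 0 throughout, as given above. Lpcat2b, a relative of Lpcat2, held at most 3 counts in a library. Per length, the group summed to 92.9 ± 2.39 RPKM (SD, n = 2) in wild-type, 95.5 ± 0.983 RPKM in control and 90.3 ± 0.264 RPKM in Cd4 cells. In the annotation Lpcat3 shares 347 bases with Emg1 and Mboat7 shares 103 bases with Tsen34. Mboat2 made up 0.211%, 1.11% and 0.057% of the summed RPKM, so that its large relative changes moved little of the group's RNA.

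**Figure D3:**
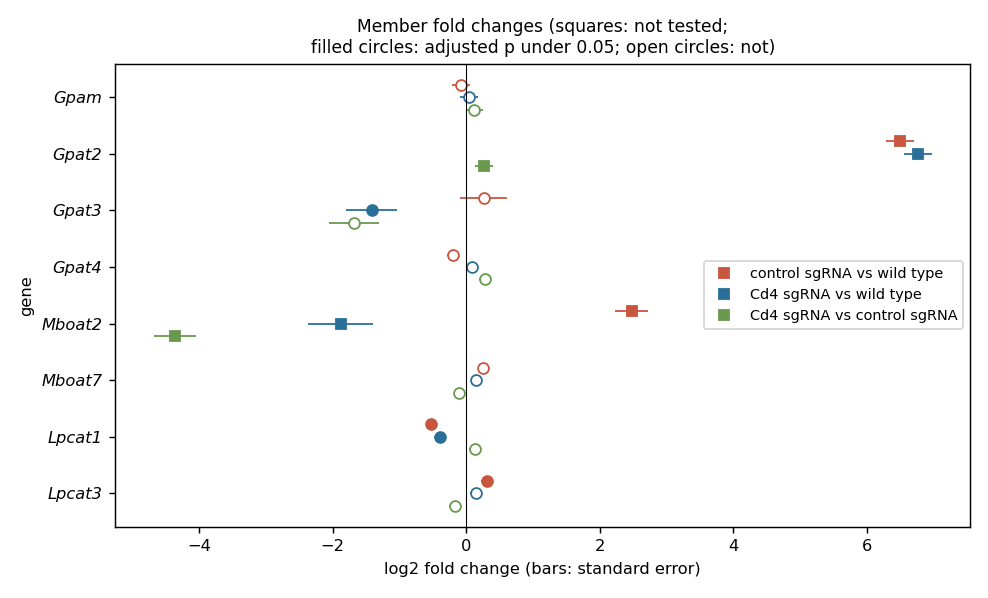
Log2 fold changes of the 8 detected genes in the 3 comparisons, with standard errors. Squares mark Gpat2 and Mboat2, for which no p-value is given, and filled circles mark an adjusted p under 0.05. Gpat2 lies near 6.49 and 6.76 against wild-type cells, Mboat2 lies on opposite sides of 0, and only Lpcat1, Lpcat3 and Gpat3 carry filled circles.

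In all, 2 of the 6 tested members other than Gpat2 and Mboat2 were called between control and wild-type cells, where 28.0% of all genes were called (14.5% higher and 13.5% lower). Lpcat3 was the higher and Lpcat1 the lower of the 2. Between Cd4 and wild-type cells 2 of 6, Gpat3 and Lpcat1, were called, both lower, where 20.5% of all genes were called (9.85% higher and 10.7% lower). With edgeR, 0 of the 6 were called between Cd4 and control cells, where 0.0725% of all genes were (0.0242% higher and 0.0483% lower). There, 2 of the 6 (Gpat3 and Gpat4) had an unadjusted p under 0.05, as did 24.9% of all genes. DESeq2 called 1 (Gpat3) and voomLmFit 0, where these tools called 11.5% and 0.0564% of all genes. The comparisons share their wild-type or control libraries and are not independent of each other.

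The order of the members by RPKM also differed by group. In wild-type cells it ran from Gpat4 (46.0 RPKM) through Lpcat1 (35.3), Lpcat3 (33.4), Mboat7 (24.0), Gpat3 (8.89) and Gpam (7.52) to Gpat2 (0.453) and Mboat2 (0.197 RPKM), and no neighbours in this order overlapped between libraries. The lower Lpcat1 library (34.889 RPKM) and the higher Lpcat3 library (34.887 RPKM) nearly touched, so their order is not resolved. In control cells Lpcat3, Gpat4 and Gpat2 (41.4, 40.1 and 40.1 RPKM) shared the top with overlapping libraries, and Gpat3 overlapped Gpam. In Cd4 cells Gpat4 and Gpat2 (48.7 and 48.3 RPKM) overlapped at the top, as did Lpcat1 and Mboat7 (26.8 and 26.6 RPKM), and Gpat3 (3.34 RPKM) had dropped below Gpam (7.77 RPKM).

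To place the members in their pathway, 91 genes in 5 lists were examined, of which 74 were tested. In the comparison of control with wild-type cells 15 were higher and 16 lower, where 14.5% of all genes were higher and 13.5% lower, with a median log2 fold change of 0.07 against -0.0012 over all genes. The same shares hold for the counts of each list, with 9.85% of all genes higher and 10.7% lower in Cd4 against wild-type cells. Among 13 tested acyltransferases outside the member set, 4 were higher and 3 lower in control cells, and 2 higher and 1 lower in Cd4 cells. Agpat2, which turns lysophosphatidic acid into phosphatidic acid in the step after GPAT, had the largest change, a log2 fold change of 4.09 ± 0.48 (SE, adjusted p = 0.0037). Its wild-type libraries held 14 and 2 counts (0.301 and 0.093 CPM), and it was at 3.36 and 4.77 CPM in control and 2.63 and 3.55 CPM in Cd4 libraries, where its log2 fold change over wild-type cells was 3.73 ± 0.52 (SE, adjusted p = 0.0086). Both calls were lost without wild-type replicate 1, where the log2 fold changes were 5.43 and 5.06, at an adjusted p of 0.0653 and 0.103, the highest over 16 alternatives, and the second also without wild-type replicate 2 or either Cd4 library. Soat1, which esterifies cholesterol, rose by a log2 fold change of 1.03 and Lpcat4 by 0.50 in control cells, and Lpgat1, an acyltransferase for lysophosphatidylglycerol, decreased by 0.44 (adjusted p = 0.0037, 0.0092 and 0.016 from edgeR's test). Soat1 also rose in Cd4 cells, by 0.46 (adjusted p = 0.042). Lpcat4 and Lpgat1 were not called there, at log2 fold changes of -0.02 and -0.23 (adjusted p = 0.85 and 0.11).

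Of 9 tested genes for the supply of glycerol 3-phosphate and acyl-CoA, 2 were higher and 2 lower in control cells, and 4 higher and 1 lower in Cd4 cells. The acyl-CoA synthetases Acsl3 and Acsl1 rose over wild-type cells by log2 fold changes of 0.69 and 0.47 in the control group and of 0.47 and 0.86 in the Cd4 group. Dbi, which carries acyl-CoA, was lower in both, at -0.77 and -1.24. Of 25 genes that lead from phosphatidic acid to glycerolipids, 4 were higher and 9 lower in control cells, and 1 higher and 6 lower in Cd4 cells. Plpp3, a lipid phosphate phosphatase that acts on lysophosphatidic and phosphatidic acid, was at 12.9 and 12.0 CPM in wild-type libraries and between 1.56 and 2.32 CPM in the others, with log2 fold changes of -2.95 ± 0.18 (SE, adjusted p = 0.00072) and -2.65 ± 0.19 (SE, adjusted p = 0.0014). Chka, the choline kinase at the head of phosphatidylcholine synthesis, had log2 fold changes of -1.13 and -0.91 (adjusted p = 0.0016 and 0.0037). Pcyt1b, which makes CDP-choline, was lower in both groups, at -2.38 in control and -3.60 in Cd4 cells (adjusted p = 0.010 and 0.0093), and Dgat2, which makes triacylglycerol, was higher in both, at 2.04 and 2.08 (adjusted p = 0.0085 and 0.013).

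Of 18 tested phospholipases, 3 were higher and 2 lower in control cells and 1 was higher in Cd4 cells. That gene was the secreted phospholipase Pla2g5, with log2 fold changes of 1.83 and 1.92 in the control and Cd4 groups (adjusted p = 0.010 and 0.014). Without wild-type replicate 1 its values were 2.68 and 2.77. Of 9 tested regulators known to act on Gpam or Lpcat3, Srebf1 was higher in both groups, by 0.54 and 0.69 (adjusted p = 0.019 and 0.013), and Insig1, which holds SREBP back in the endoplasmic reticulum, rose in control cells, by 0.75 (adjusted p = 0.035). Insig1 was at 49.9 and 46.2 CPM in wild-type, 66.2 and 95.8 CPM in control and 32.7 and 26.8 CPM in Cd4 libraries.

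Over the 5 lists, 9 of 74 genes were higher and 8 lower in Cd4 than in wild-type cells, where 20.5% of all genes were called, with a median of -0.02 against 0.0045 over all genes. Between Cd4 and control cells edgeR called 0 of the 74, while 27 had an unadjusted p under 0.05, DESeq2 called 13 and voomLmFit 0. Over all genes the shares by these 3 rules were 24.9%, 11.5% and 0.0564%. The smallest adjusted p there was that of Insig1 (log2 fold change -1.45 ± 0.20 SE, adjusted p = 0.098), followed by Lpin1, a phosphatidic acid phosphatase, at -1.83 ± 0.28 (SE, adjusted p = 0.10). Lpin1 was at 19.8 and 18.7 CPM in wild-type, 46.4 and 82.3 CPM in control and 20.2 and 16.0 CPM in Cd4 libraries. Without control replicate 1 the log2 fold changes were -1.69 for Insig1 and -2.19 for Lpin1, and without control replicate 2 they were -1.16 and -1.37. Each of these fits holds 1 control library and carries no spread between control libraries. Of the list genes named above, Plpp3 and, in control cells, Chka kept their calls in all 16 alternatives. The calls of the others were lost without at least 1 wild-type library, except that Pcyt1b and Dgat2 in control cells were not followed through the alternatives.

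**Figure D4:**
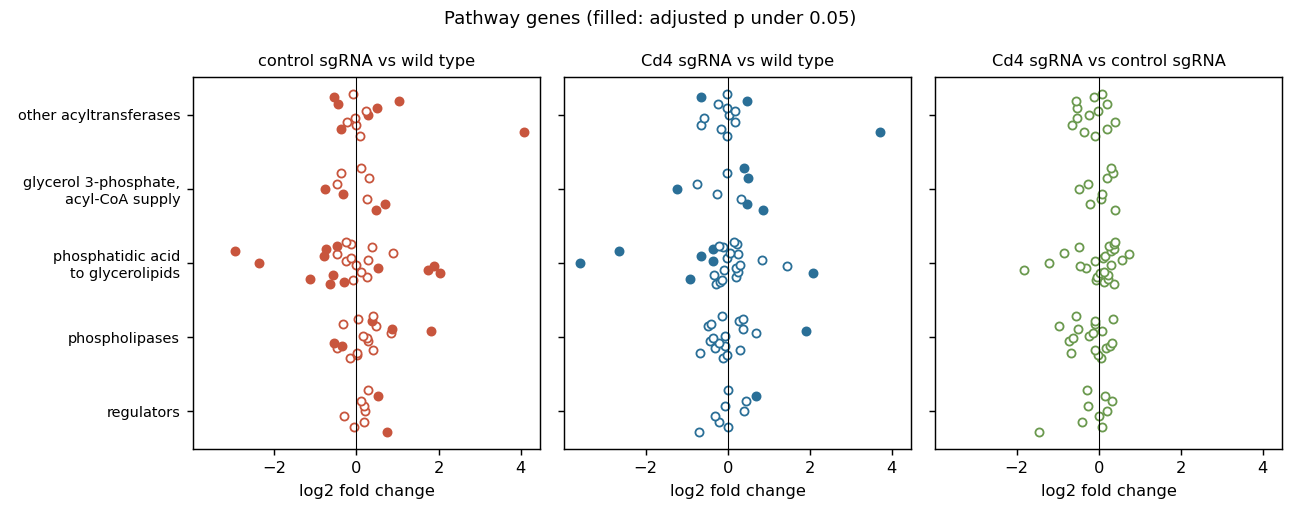
Log2 fold changes of the tested genes of the 5 pathway lists in the 3 comparisons, each point a gene and filled where the adjusted p was under 0.05. Agpat2 is the point at 4.09 and 3.73 against wild-type cells, Plpp3 lies at -2.95 and -2.65, and no point is filled between Cd4 and control cells.

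The tested genes with the profile most like that of Gpat2 over the 6 libraries, by the root mean square difference of centred log2 CPM, were Pcdhgb4, Tex101, Wnt10b, Mtus2 and Upk1b, at distances of 0.20 to 0.43. All 5 had at most 4 counts in a wild-type library and between 2.15 and 9.26 CPM in the TETact-v3 libraries, so that Gpat2, at 91.8 CPM or more there, was far above them. With a smaller prior count, 0 of these 5 genes were among the nearest, so the list rests on how low counts are damped. Nearest to Mboat2 were Ndrg1, Stc1, Tlcd3b, Hs3st6 and Ggn, at 0.49 to 0.78, and 3 of these remained with the smaller prior. Ndrg1 was at 18.3 and 18.6 CPM in wild-type, 46.1 and 139.3 CPM in control and 7.26 and 4.79 CPM in Cd4 libraries, which is the order of groups seen in Mboat2 but with control replicates much further apart. Stc1 was at 1.83 and 2.71 CPM in wild-type, 11.4 and 12.1 CPM in control and 2.20 and 1.74 CPM in Cd4 libraries, where its wild-type and Cd4 values overlapped.

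The nearest tested genes on each side of Gpat2 and Mboat2 are given as a description. Because Gpat2 and Mboat2 were chosen for their strong change, a smaller change in a neighbour is no finding. Genes that did not pass the filter on low counts were not examined. Fahd2a, which begins 122 bases beyond the end of Gpat2, was at 6.66, 8.56 and 8.21 CPM on average in wild-type, control and Cd4 cells, with log2 fold changes over wild-type cells of 0.37 and 0.31 (adjusted p = 0.080 and 0.15). On the other side Dusp2, 86.8 kb away, was lower than in wild-type cells by log2 fold changes of -1.62 and -1.31 (adjusted p = 0.00078 and 0.0016). Kidins220, 10.5 kb from Mboat2, was at -0.34 in control and -0.17 in Cd4 cells (adjusted p = 0.030 and 0.19), and Rrm2, 117 kb away on the other side, rose in both, by 0.69 and 0.90 (adjusted p = 0.033 and 0.020). The calls of Kidins220 and Rrm2 were lost when any 1 wild-type or Cd4 library was left out.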

How the data were processed

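Gene counts were deposited by the authors, who aligned polyA RNA-seq reads to mm10 (GRCm38) with Rsubread and counted them with featureCounts against its inbuilt RefSeq genes. The deposited gene length is exonic length in bases, and the strand setting and the treatment of shared reads are not given in the sources used here. Of 27179 identifiers, 25275 were matched to a RefSeq GRCm38.p6 symbol. Genes without a symbol, mitochondrial genes, rRNA and genes of type "other" were left out, which removed 5.01% to 13.9% of the counts per library, and 12418 genes were left after filterByExpr.

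CPM and RPKM were computed from the counts with TMM scaling. All 6 libraries were fitted together with edgeR 4.0.16 (R 4.3.3, glmQLFit with robust = TRUE and legacy = FALSE, then glmQLFTest), with Benjamini-Hochberg adjustment over all 12418 genes and a threshold of 0.05, and every adjusted p comes from this test unless another tool is named. All tests were two-sided. The SE of an edgeR log2 fold change was worked back from the F value that glmQLFTest gave for it. The ± values of the log2 fold changes of Gpat2 and Mboat2 therefore rest on that test, and only their p-values are left out. The newer dispersion method was set after the data had been seen, and the older default is among the alternatives, as is the prior count of 0.25 for the nearest profiles (2 otherwise). Other alternatives were voomLmFit (limma 3.58.1), which the study used, DESeq2 1.42.0, other scalings and filters, 2 groups alone, a replicate block and leaving out each library. The fit was also run on simulated counts with the same dispersion in every library and large known fold changes. That run does not check small changes or groups of unequal spread.

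The members, the pathway lists and the markers were chosen with earlier results of these data known. Named genes were the 10 members, Cd4, in each list and comparison up to 4 tested genes with the smallest p, the 5 nearest profiles and the nearest tested gene on each side of Gpat2 and Mboat2, and other list genes are given only as counts. Of the markers, results are given singly for Cd74, Cd79a, Cd79b, Cd3e and Cd14. A gene named in 1 comparison is given in another mainly where its call is the same, so the named genes do not measure how far the groups agree. Nothing is stated on separate cultures beyond independent repetition, so the p-values measure the spread between these libraries. A B cell marker of the original list is not reported here.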

Additional observations from a re-analysis of the deposited data

Results flagged for a closer look

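Mboat2 was set apart because both control TETact-v3 libraries lay above, and both Cd4 TETact-v3 libraries below, both wild-type libraries. The control and Cd4 groups differed by a log2 fold change of -4.36, with 325 and 246 counts against 5 and 6. No p-value is given for this difference, since it is among the values that chose the set.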

How the results depend on the processing

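The number of called members other than Gpat2 and Mboat2 was small under most settings and moved with the libraries used. Between control and wild-type cells it was 2, and 1 without a filter on low counts, with only the 2 groups compared and with a replicate block. It was 3 with library size only, where Mboat7 was called. Between Cd4 and wild-type cells it was 2, and 1 with voomLmFit, with library size only and with a replicate block. With only the 2 groups compared it was 4 there. Between Cd4 and control cells it was 0, and 1 with DESeq2. For the 74 pathway genes the counts were 31, 17 and 0. They were 18 between control and wild-type cells and 50 between Cd4 and wild-type cells with only the 2 groups compared, and 26 between Cd4 and wild-type cells and 13 between Cd4 and control cells with DESeq2. Leaving out single libraries gave 2 to 57, 1 to 52 and 0 to 57. Without control replicate 1 the counts in the 3 comparisons were 6, 4 and 5 members and 57, 52 and 57 pathway genes, and without wild-type replicate 1 they were 0, 0 and 0 members and 2, 1 and 0 pathway genes. The cause was not tested. Directions reversed without control replicate 2 for Gpat3 (-0.42, against 0.75 without control replicate 1) and Gpam (0.062, against -0.21) between control and wild-type cells, and for Gpam (-0.019) and Rrm2 (-0.032, against 0.52) between Cd4 and control cells. Gpam between Cd4 and wild-type cells was at -0.031 without Cd4 replicate 1 and 0.12 without replicate 2. Gpat2 and Mboat2 kept their direction in every alternative, with Gpat2 at 6.32 to 6.67 and 6.68 to 6.85 over wild-type cells without single libraries. Because these 2 genes were chosen for their strong change in the same libraries, this is a description and no support for it. The replicate numbers are shared across groups but are not stated to pair the samples, and the deviations of same-numbered samples correlated at -0.035, 0.014 and -0.137. With the replicate block, 27, 13 and 0 pathway genes were called, and among the members Lpcat3 in control cells (adjusted p = 0.068, range 3.81e-05 to 0.28) and Lpcat1 in Cd4 cells (adjusted p = 0.0505, range 5.13e-06 to 0.256) were no longer called. At 5 and 6 counts, depth limits the precision of Mboat2 in Cd4 cells.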
